A study of Mus musculus with 30 samples.

Results

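The genes described here are the 10 genes of the MHC class I antigen processing pathway that carry the names B2m, H2-K1, H2-D1, Tap1, Tap2, Tapbp, Psmb8, Psmb9, Psmb10 and Nlrc5 among the 46078 genes of the deposited counts table. They were taken by name, and all 10 of 10 had enough counts to be tested. Their RNA was measured in 30 libraries, each from the scraped epithelial layer of the colon of 1 wild-type C57BL/6J mouse that was between 5 and 10 weeks old when the experiment began. Vehicle mice received a saline injection and were killed at week 9. Treated mice received 1 injection of the carcinogen azoxymethane (AOM, 10 mg/kg) and 3 cycles of 2.5% dextran sulfate sodium (DSS), an irritant that causes colitis, in the drinking water, and were killed 9 or 15 weeks after AOM. Each of the 6 groups of sex and treatment held 5 mice with 1 library each. The vehicle libraries are all labelled as week 9 and no 15-week vehicle group was analysed here, so at 15 weeks treatment and age cannot be told apart.

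MHC class I molecules present fragments of proteins made inside the cell to CD8 T cells. The proteasome cuts the fragments, and under interferon gamma its constitutive catalytic subunits are replaced by the inducible subunits encoded by Psmb8, Psmb9 and Psmb10, which gives the immunoproteasome. Tap1 and Tap2 encode the transporter that brings the peptides into the endoplasmic reticulum, tapasin (Tapbp) holds the empty class I molecule beside it, and the finished complex consists of a heavy chain, such as H2-K1 or H2-D1, with beta-2 microglobulin (B2m). Nlrc5 encodes a transactivator that interferons induce and that joins the factors on the class I promoters. Epithelial cells of the colon carry class I molecules at rest and raise them in inflammation.

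Of the 10 genes, 7 lie in or beside the MHC region of chromosome 17, in GRCm38 coordinates of the deposited files. Psmb9 (ENSMUSG00000096727, chr17:34181988-34187764, minus strand) and Tap1 (ENSMUSG00000037321, chr17:34187553-34197225, plus strand) stand head to head, with RefSeq first bases 226 bases apart and annotated genes that overlap. Psmb8 (ENSMUSG00000024338, chr17:34197721-34201454, plus strand) and Tap2 (ENSMUSG00000024339, chr17:34203527-34216321, plus strand) follow. Tapbp (ENSMUSG00000024308, chr17:33915899-33929288, plus strand), H2-K1 (ENSMUSG00000061232, chr17:33996017-34000333, minus strand) and H2-D1 (ENSMUSG00000073411, chr17:35262730-35267499, plus strand) complete this group. B2m (ENSMUSG00000060802, chr2:122147686-122153083, plus strand), Psmb10 (ENSMUSG00000031897, chr8:105935728-105938392, minus strand) and Nlrc5 (ENSMUSG00000074151, chr8:94472763-94527272, plus strand) lie elsewhere.

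Promoter windows from 250 bases before to 50 bases after the first base of the gene, from RefSeq on GRCm38.p6, were held for 8 of the 10 genes, Tap2 and Nlrc5 excepted. The classical class I promoters carry the X and Y boxes to which the factors that Nlrc5 joins bind. The windows of B2m, H2-K1 and H2-D1 each hold the letters TGACG of an X2 box followed, after 20 bases, by ATTGG, the reverse of a CCAAT box. That arrangement was present in 31 of 32851 windows of all genes (0.0944%). Its spacing was chosen after the sequences had been read, and with a spacing of 18 to 22 bases the letters were in 88 windows (0.268%). These stretches are shown because they are the letters that the light chain and both heavy chains share, in capitals, with the spacer between them in lower case.
B2m, chr2:122147609-122147638, plus strand: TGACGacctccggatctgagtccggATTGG
H2-K1, chr17:34000359-34000388, minus strand: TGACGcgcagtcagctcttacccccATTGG
H2-D1, chr17:35262993-35263022, plus strand: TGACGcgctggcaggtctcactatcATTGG
The spacers differ from each other, while the boxes at both ends are identical.

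Sites for other factors of inflammation were also searched, on both strands. The interferon-stimulated response element GAAANNGAAA, which was in 3.44% of all windows, was in the window of B2m, before its first base. The NF-kB letters GGGNNTTCCC (1.75% of all windows) were in those of H2-K1 and H2-D1, at 111 and 171 bases before the RefSeq first base. The gamma-activated site TTCNNNGAA (8.30% of all windows) was in that of Psmb8, 97 bases before the RefSeq first base. They are shown with 10 bases on either side, and the fixed letters of each motif are in capitals.
B2m, chr2:122147538-122147567, plus strand: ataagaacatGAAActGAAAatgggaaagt
H2-K1, chr17:34000439-34000468, minus strand: gcccagggctGGGgaTTCCCcatctccaca
H2-D1, chr17:35262913-35262942, plus strand: gcccagggctGGGgaTTCCCcatctcctca
Psmb8, chr17:34198088-34198117, plus strand: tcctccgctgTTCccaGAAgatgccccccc
The windows of Tapbp, Tap1 and Psmb9 held none of these 3 motifs and only a CCAAT box, letters that are in 37.4% of all windows, and that of Psmb10 held none of the 4. The annotated genes Psmb8 and H2-D1 start further upstream than the RefSeq first base, so the stretches shown for both lie inside the annotated gene and overlap an exon of an annotated transcript. A match is a description of the letters and was not tested for binding.

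The libraries held between 9265804 and 30806392 counts in genes, with a median of 24697064.5, and the 10 genes together took between 0.171 and 0.553% of them. Epcam, which marks epithelium, was between 1312 and 1862 CPM (counts relative to the library total, scaled by the trimmed mean of M values, TMM) in every library. Epithelial transcripts were thus present in each, though Epcam alone does not show which epithelium they came from. The summed CPM of 7 genes of all leukocytes ran from 38.1 to 102 in vehicle, from 80.7 to 234 at 9 weeks and from 49.0 to 140 at 15 weeks. One library stood apart: male vehicle replicate 1 had a summed level of 6 smooth muscle genes of 5277 CPM, against at most 114.9 in the other vehicle libraries, 1025 CPM of 8 mesenchymal genes, and 3.68 CPM of the intestinal regulator Cdx2, against a vehicle median of 180.2. Results for males are therefore also given without it. In bulk libraries, fewer cells of a type and less RNA per cell cannot be told apart.

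At rest, the presenting molecules were the most abundant of the 10 genes and their transactivator the least. Levels of different genes were compared within each library in TPM, the unit of the deposited abundance files that is scaled by transcript length. In vehicle mice the median TPM was 305 for H2-K1, 241 for B2m and 180.3 for H2-D1. Neighbours in this order were close, with H2-K1 above B2m in 8 of 10 libraries and B2m above H2-D1 in 9 of 10. Tapbp (37.0 TPM) and Psmb10 (32.6 TPM) came next, followed by Psmb8 (7.70 TPM), Psmb9 (5.92 TPM), Tap2 (5.20 TPM) and Tap1 (4.49 TPM), where Psmb9 exceeded Tap2 in 7 of 10 libraries. Nlrc5 was last in all 10 vehicle libraries, between 0.0440 and 0.232 TPM. The order differed after treatment: at 9 weeks B2m (784 TPM) exceeded H2-K1 (573 TPM) in 10 of 10 libraries, Psmb10 (75.2 TPM) exceeded Tapbp (57.1 TPM) in 10 of 10, and Tap1 (23.4 TPM) exceeded Tap2 (12.8 TPM) in 10 of 10. The same 3 orders stood at 15 weeks in 8, 8 and 9 of 10 libraries.

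After 9 weeks of AOM/DSS, 9 of the 10 genes had risen in the fit that averaged the sexes, by 1.59-fold for H2-K1 to 22.8-fold for Nlrc5, and Tapbp alone did not pass. A differentially expressed gene (DEG) had an adjusted p below 0.05, a log2 fold change beyond 0.4 and a mean of at least 1 FPKM in a compared group. Of the 16261 genes tested, 5.51% were higher by this rule. The median log2 fold change was 1.14 over the 10 genes and -0.02 over all genes tested. The 10 libraries at 9 weeks did not overlap the 10 vehicle libraries for 7 of the 10 genes, as for 0.935% of all genes. Except where a permutation test is named, adjusted p-values are Benjamini-Hochberg values of edgeR's quasi-likelihood test over all genes tested, and values of a library are TMM-scaled CPM.

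The catalytic subunits of the immunoproteasome rose, with larger folds for Psmb8 and Psmb9 than for Psmb10. Psmb8 lay between 14.2 and 40.8 CPM in vehicle (median 23.4) and between 63.8 and 153 CPM at 9 weeks (median 98.4), without overlap. Its log2 fold change was 2.10 ± 0.20 (SE, 4.29-fold, adjusted p = 4.12e-08). Psmb9 lay between 10.6 and 17.8 CPM in vehicle (median 14.6) and between 29.3 and 96.7 CPM at 9 weeks (median 55.2). Again no treated library was within the range of the vehicle libraries, and the log2 fold change of Psmb9 was 2.06 ± 0.18 (4.18-fold, adjusted p = 1.76e-08). For Psmb10, 9 of 10 libraries at 9 weeks, which spanned 106 to 162.1 CPM, exceeded all vehicle libraries, which spanned 57.0 to 107 CPM. The log2 fold change of Psmb10 was 0.75 ± 0.14 (1.68-fold, adjusted p = 0.000497).

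Of the genes for peptide transport, Tap1 rose with a larger fold than its partner Tap2. In female vehicle mice Tap1 was at 23.7, 26.6, 24.3, 16.7 and 15.8 CPM, and in males at 19.0, 23.5, 25.8, 21.6 and 23.4 CPM. At 9 weeks it was at 122.1, 80.8, 91.5, 134 and 40.1 CPM in females and at 126, 194, 132.8, 93.4 and 98.2 CPM in males. The lowest treated library, female replicate 5, was thus still above the highest vehicle library, and the log2 fold change of Tap1 was 2.31 ± 0.22 (4.97-fold, adjusted p = 6.05e-08). Tap2 spanned 20.5 to 39.0 CPM in vehicle and 35.4 to 77.2 CPM at 9 weeks, with 9 of 10 treated libraries above all vehicle libraries and a log2 fold change of 0.93 ± 0.15 (1.91-fold, adjusted p = 5.24e-05). Tapasin differed little: Tapbp spanned 152 to 216 CPM in vehicle and 194 to 247 CPM at 9 weeks, and its log2 fold change of 0.29 ± 0.09 (1.22-fold, adjusted p = 0.0252) stayed below the fold threshold.

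The chains of the class I molecule rose less in fold than Tap1, from far higher levels. B2m was at 305, 592, 513, 314 and 558 CPM in female vehicle mice and at 158.02, 337, 433, 381 and 327 CPM in males. At 9 weeks it was at 988, 834, 951, 1199 and 868 CPM in females and at 1061, 1514, 1020, 713 and 742 CPM in males. All treated libraries exceeded all vehicle libraries, and the lowest value was that of male vehicle replicate 1. The log2 fold change of B2m was 1.36 ± 0.16 (2.56-fold, adjusted p = 8.47e-07), and 1.27 without that library. H2-K1 spanned 586 to 1007 CPM in vehicle and 1012 to 1523 CPM at 9 weeks (log2 fold change 0.67 ± 0.11, adjusted p = 0.000143). H2-D1 spanned 522 to 784 CPM in vehicle and 964 to 1394 CPM at 9 weeks (log2 fold change 0.85 ± 0.10, adjusted p = 8.03e-07). Both heavy chains were thus separated from vehicle without overlap. Of the 51-base stretches of their transcripts, 9.22% for H2-K1 and 12.2% for H2-D1 are shared with other genes, mostly other class I genes, so reads may be split among them and their counts are uncertain to that extent.

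Nlrc5 had the largest fold change of the 10 genes. In vehicle it was at 1.13, 2.68, 1.15, 0.928 and 1.28 CPM in females and at 1.98, 2.91, 1.91, 2.42 and 1.16 CPM in males, with at least 12 counts in each library. At 9 weeks Nlrc5 was at 52.7, 36.7, 34.3, 47.5 and 6.29 CPM in females and at 44.5, 74.3, 44.1, 25.5 and 31.1 CPM in males. Every treated library was above every vehicle library, although female replicate 5 was far below the other treated libraries. The log2 fold change of Nlrc5 was 4.51 ± 0.41 (22.8-fold, adjusted p = 1.76e-08), and 4.64 without female replicate 5. In that library B2m (868 CPM) and H2-K1 (1243 CPM) were within the range of the other treated females.

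**Figure D1:**
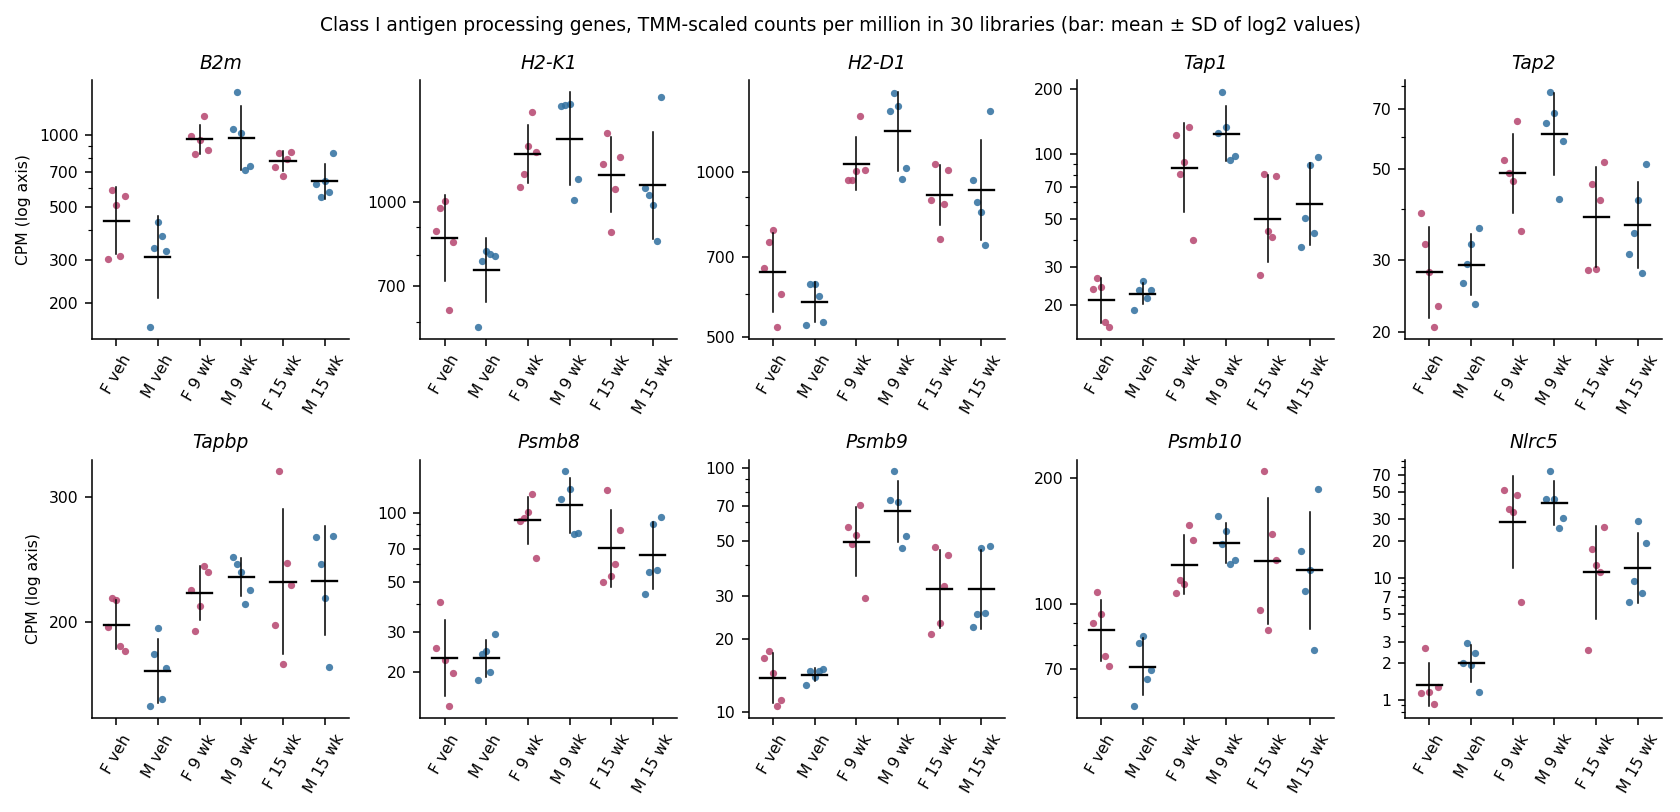
TMM-scaled CPM (log axis) of the 10 genes in each of 30 libraries, by sex (F, M) and group (vehicle, 9 weeks, 15 weeks), each point is 1 mouse and the bars give the mean ± SD of the log2 values, n = 5. Nlrc5 runs from at most 2.91 CPM in vehicle to between 6.29 and 74.3 CPM at 9 weeks, while Tapbp overlaps between groups.

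At 15 weeks, 8 of the 10 genes were still DEGs above vehicle in the fit that averaged the sexes, against 3.46% of all genes tested. The same vehicle libraries served as the control at both times, so the 2 comparisons are not independent. The median log2 fold change of the 10 genes was 0.79, against -0.03 over all genes. All libraries of both sexes were above all vehicle libraries for Tap1, Psmb8 and Psmb9 alone, as for 0.166% of all genes.

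Of the proteasome subunits, Psmb8 spanned 44.1 to 127 CPM at 15 weeks, with a log2 fold change against vehicle of 1.57 ± 0.20 (2.98-fold, adjusted p = 1.89e-05). Psmb9 spanned 21.0 to 47.9 CPM (1.24 ± 0.18, 2.36-fold, adjusted p = 0.000101). Psmb10 overlapped the vehicle range in 3 libraries and spanned 77.5 to 207 CPM (0.71 ± 0.14, 1.63-fold, adjusted p = 0.00209). For transport, Tap1 was at 27.6, 80.4, 44.1, 41.1 and 79.3 CPM in females and at 36.9, 50.6, 89.0, 43.1 and 97.2 CPM in males, a log2 fold change of 1.41 ± 0.22 (2.66-fold, adjusted p = 0.000178). The lowest of these, female replicate 1, lay only just above the highest vehicle library. Tap2 (0.40 ± 0.15, adjusted p = 0.0556) and Tapbp (0.33 ± 0.09, adjusted p = 0.0145, below the fold threshold) did not pass.

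B2m was at 739, 842, 676, 796 and 852 CPM in 15-week females and at 626, 551, 643, 580 and 841 CPM in males, a log2 fold change against vehicle of 0.88 ± 0.16 (1.84-fold, adjusted p = 0.000715). Of these libraries 8 of 10 were above all vehicle libraries. H2-K1 (0.47 ± 0.11, adjusted p = 0.00805) and H2-D1 (0.58 ± 0.10, adjusted p = 0.00041) passed as well, with 7 and 8 of 10 libraries above all vehicle libraries. Nlrc5 was at 2.54, 17.3, 12.8, 11.2 and 26.03 CPM in females and at 6.35, 9.43, 29.2, 7.44 and 19.2 CPM in males. Only female replicate 1 fell within the vehicle range, and the log2 fold change of Nlrc5 was 3.04 ± 0.39 (8.20-fold, adjusted p = 2.34e-05). Without male vehicle replicate 1 the counts of DEGs remained 9 at 9 weeks and 8 at 15 weeks.

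A comparison of the AOM/DSS groups with each other asks whether the genes differed between the earlier and the later time. In the fit that averaged the sexes, 4 of the 10 genes were lower at 15 than at 9 weeks, against 1.91% of all genes. These were Nlrc5 (log2 fold change -1.47 ± 0.35, adjusted p = 0.0203), Tap1 (-0.90 ± 0.21, adjusted p = 0.0217), Psmb9 (-0.82 ± 0.18, adjusted p = 0.0149) and Tap2 (-0.54 ± 0.15, adjusted p = 0.0359). The other 6 did not pass, with values of -0.53 for Psmb8 (adjusted p = 0.0958), -0.48 for B2m (adjusted p = 0.0721), -0.27 for H2-D1, -0.20 for H2-K1, -0.04 for Psmb10 and 0.04 for Tapbp. The groups overlapped for every gene, and 1 library at 15 weeks was below all 9-week libraries for Nlrc5. The count of lower genes turned on single libraries: it was 1 when female replicate 4 at 9 weeks was left out, 2 when either male replicate 2 at 9 weeks or female replicate 1 at 15 weeks was, and 6 when female replicate 5 at 9 weeks was. It was also 0 with a mesenchyme or a leukocyte score as a covariate, as for all genes (0% lower in both), and 10 in limma on the deposited TPM, a scale on which the median of all genes was itself -0.43. Within each sex none of the 10 passed, nor did any gene of the table (0% in females and 0% in males). At an unadjusted p below 0.05 (edgeR) there were 3 of the 10 in females, against 2046 of the 16261 genes tested. In males there were 7 of the 10, against 2179 of all genes.

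**Figure D2:**
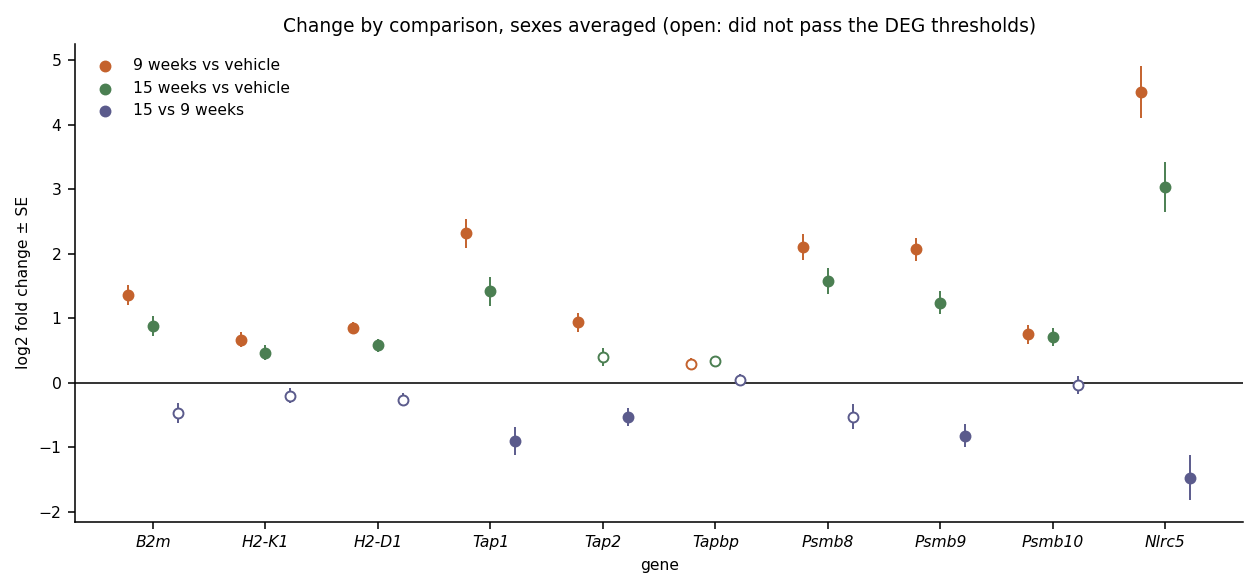
Log2 fold change ± SE (edgeR, sexes averaged) of each of the 10 genes at 9 weeks against vehicle, 15 weeks against vehicle and 15 against 9 weeks, open circles did not pass the DEG thresholds. Nlrc5 has the largest values, 4.51, 3.04 and -1.47, and Tapbp the smallest against vehicle, 0.29 and 0.33.

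The study asked how the sexes differ, and the genes were therefore compared in each sex. At 9 weeks, 7 of the 10 were DEGs in females, against 2.42% of all genes, and all 10 in males, against 4.42%. H2-K1 (log2 fold change 0.51, adjusted p = 0.0662), Psmb10 (0.52, adjusted p = 0.158) and Tapbp (0.15, adjusted p = 0.621) did not pass in females, while in males these were 0.82, 0.97 and 0.43 and passed. For Nlrc5 the log2 fold change was 4.62 ± 0.58 in females and 4.40 ± 0.56 in males, for Tap1 2.12 ± 0.32 and 2.50 ± 0.32, and for B2m 1.09 ± 0.23 and 1.63 ± 0.23. Without male vehicle replicate 1 the male count was 9, as Tapbp (0.39, adjusted p = 0.0807) did not pass, and the value of B2m in males was 1.45. Without female 9-week replicate 5 the female count was still 7.

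The difference of the responses between the sexes was tested itself, and it passed for none of the 10 genes, nor for any gene of the table (0% at 9 weeks, 0% at 15 weeks and 0% from 9 to 15 weeks). The male response at 9 weeks was the larger for 9 of the 10, with the largest differences in B2m (0.54 ± 0.31 on the log2 scale) and Psmb10 (0.46 ± 0.28), whereas that of Nlrc5 was -0.22 ± 0.73. Over all genes tested the median of this difference was -0.02. The 10 genes vary together and share 1 group of vehicle males, so the 9 are not separate observations. That group holds male vehicle replicate 1, without which the response of B2m in males was 1.45 in place of 1.63. The adjusted p-values of edgeR for the 10 genes ran from 0.68 to 0.964. None of the 10 had an unadjusted p below 0.05 in these 3 tests, against 1205, 1245 and 363 of all genes. With 5 mice per group the SE of a difference at 9 weeks was between 0.18 and 0.73, and differences of this size were not detectable.

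At 15 weeks, 3 of the 10 genes were DEGs in females, where only 0.0861% of all genes were higher, and 9 of the 10 in males, where 4.37% were. The 3 in females were Psmb8 (log2 fold change 1.60, adjusted p = 0.00985), Psmb9 (1.25, adjusted p = 0.044) and Nlrc5 (3.28, adjusted p = 0.00925). In males these 3 had values of 1.55, 1.24 and 2.80. Tap1 was 1.34 in females (adjusted p = 0.0686) and 1.48 in males (adjusted p = 0.00378), so that similar values fell on either side of the threshold. The female count was 0 when vehicle replicate 3 was left out, 1 when vehicle replicate 5 or replicate 2 at 15 weeks was, and 4 when replicate 1 at 15 weeks was. The male count was 7 without male vehicle replicate 1, as Tapbp (0.39, adjusted p = 0.0824) and H2-K1 (0.47, adjusted p = 0.0907) did not pass. Males and females compared directly differed in none of the 10 genes, in vehicle (0.178% of all genes), at 9 weeks (0.0492%) or at 15 weeks (0.184%). Before adjustment 1 of the 10 genes in vehicle, B2m, had a p below 0.05 by edgeR, as had 3035 of the 16261 genes tested. Its log2 difference was -0.48 ± 0.22 in males against females (adjusted p = 0.242 by edgeR). That group holds male vehicle replicate 1.

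**Figure D3:**
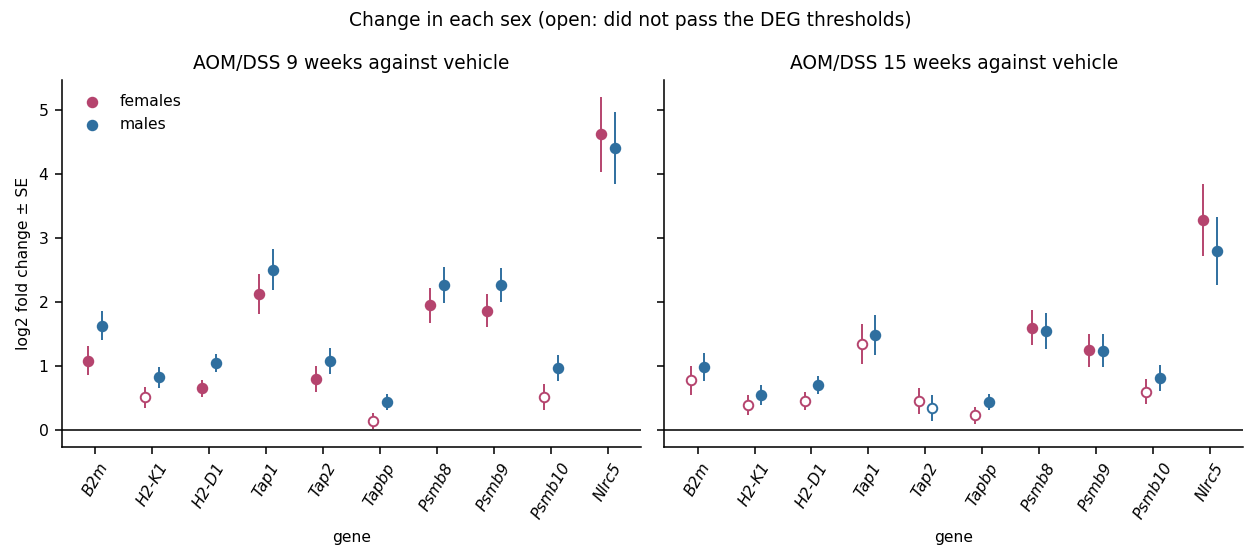
Log2 fold change ± SE (edgeR) against vehicle of each of the 10 genes in females and males at 9 and 15 weeks, open circles did not pass the DEG thresholds. At 9 weeks the male value is the higher for every gene but Nlrc5 (4.62 in females, 4.40 in males), and no difference between the sexes passed its own test.

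The immunoproteasome subunits displace constitutive counterparts, Psmb8 that of Psmb5, Psmb9 that of Psmb6 and Psmb10 that of Psmb7. The ratio of TPM within a library was used to compare each pair, since it is per length and free of the scaling of the library. Psmb8 to Psmb5 was 0.204 in vehicle (median, 0.159 to 0.336), 0.803 at 9 weeks (0.460 to 1.46) and 0.5003 at 15 weeks (0.307 to 0.811). Psmb9 to Psmb6 was 0.0972 (0.0736 to 0.126), 0.380 (0.178 to 0.697) and 0.199 (0.132 to 0.295). Psmb10 to Psmb7 started near parity, at 0.900 (0.632 to 1.12), and was 1.32 (1.07 to 1.57) and 1.201 (0.723 to 1.99).

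These 9 differences were tested by a two-sided exact permutation test that exchanged libraries within each sex, with Benjamini-Hochberg adjustment over the 9. At 9 weeks the ratio of Psmb8 to Psmb5 was 3.57-fold and that of Psmb9 to Psmb6 3.70-fold that in vehicle, both with all 10 libraries above all vehicle libraries (permutation p = 3.15e-05, the smallest these exchanges can give, adjusted p = 9.45e-05). That of Psmb10 to Psmb7 was 1.49-fold (permutation, adjusted p = 0.000113, 8 of 10 libraries above all vehicle libraries). At 15 weeks the ratios were 2.33-fold (permutation, adjusted p = 0.000113), 1.92-fold (permutation, adjusted p = 9.45e-05) and 1.30-fold (permutation, adjusted p = 0.0408) that in vehicle, of which the last lost its call in 12 of 20 repeats that left out 1 library. From 9 to 15 weeks the ratio of Psmb9 to Psmb6 fell to 0.520 of its value (permutation, adjusted p = 0.00104) and that of Psmb8 to Psmb5 to 0.652 (permutation, adjusted p = 0.00899), while that of Psmb10 to Psmb7 was 0.870 of its value and did not pass (permutation, adjusted p = 0.245). The constitutive genes themselves were not DEGs: at 9 weeks Psmb5, Psmb6 and Psmb7 had log2 fold changes of 0.28, 0.15 and 0.18, and at 15 weeks of 0.35, 0.28 and 0.28, below the fold threshold.

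**Figure D4:**
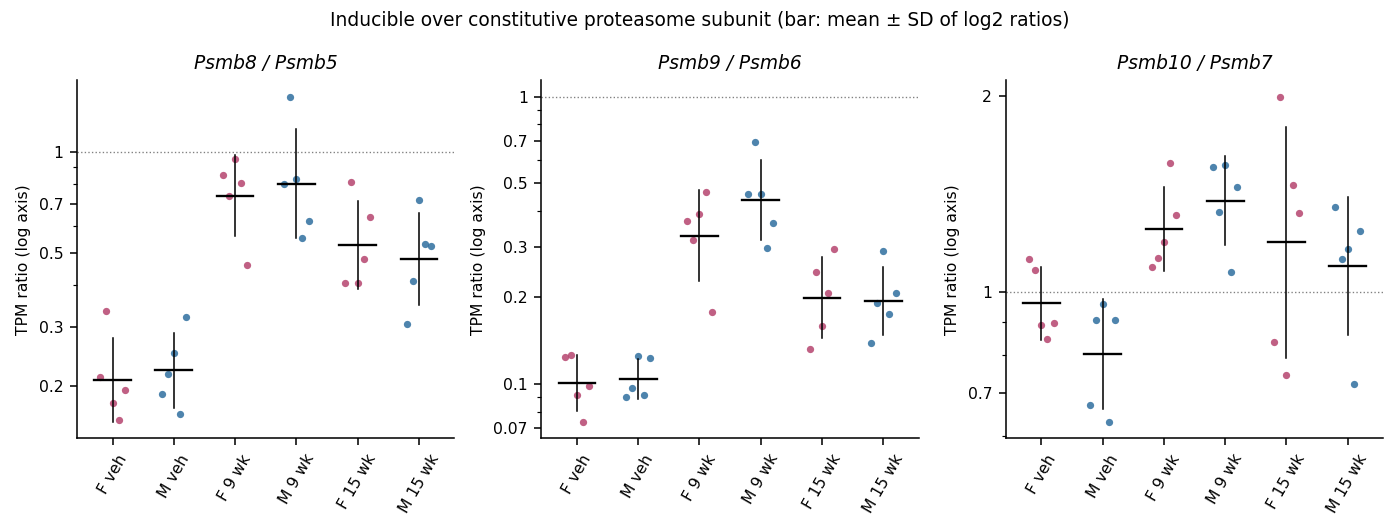
Ratio of the TPM of each inducible proteasome subunit to its constitutive counterpart (log axis) in each of 30 libraries, by sex and group, bars give the mean ± SD of the log2 ratios, n = 5, and the dotted line marks a ratio of 1. The medians of Psmb8 to Psmb5 are 0.204 in vehicle, 0.803 at 9 weeks and 0.5003 at 15 weeks, and those of Psmb10 to Psmb7 are 0.900, 1.32 and 1.201.

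Partners of the 10 genes in the pathway were examined in the same fits. Of 7 further proteasome genes, 3 rose at both times: the subunits of the PA28 activator, Psme1 (log2 fold change 0.73 at 9 and 0.57 at 15 weeks) and Psme2 (0.63 and 0.57), and Pomp (0.43 and 0.57), the chaperone of proteasome assembly. The median of the 7 was 0.28 at 9 weeks and 0.35 at 15 weeks. Of 5 genes of peptide trimming and loading, 1 rose at 9 weeks, the tapasin homologue Tapbpl (0.44, adjusted p = 0.00944), and none at 15 weeks, with medians of 0.35 and 0.10. The trimming peptidase Erap1 (0.36 at 9 weeks, adjusted p = 0.0311) and Pdia3 (0.35, adjusted p = 0.0142), an oxidoreductase of the loading complex, stayed below the fold threshold. The chaperones Calr (0.30, adjusted p = 0.0581) and Canx (0.07, adjusted p = 0.709) did not pass.

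Of 16 other class I and class I-like genes tested, 9 rose at 9 weeks (median 0.59), 4 at 15 weeks (median 0.34), and 4 were lower at 15 than at 9 weeks (median -0.31). The Qa-2 genes H2-Q6 (log2 fold change 3.09 ± 0.34 at 9 weeks, 1.82 at 15 weeks) and H2-Q7 (3.04 ± 0.31 and 1.82) led at both times, and both were lower at 15 than at 9 weeks, by -1.27 and -1.22. H2-Q4 (1.41 at 9 and 0.58 at 15 weeks) and H2-M2 (1.23 at 9 weeks) followed. These genes share stretches with H2-K1 and H2-D1 and carry the same uncertainty.

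Of 12 genes of interferon signalling, 6 rose at 9 weeks (median 0.70), and 5 rose and 1 fell at 15 weeks (median 0.38). The feedback inhibitor Socs1 had log2 fold changes of 2.14 ± 0.25 at 9 and 1.52 ± 0.25 at 15 weeks. Stat2 (0.97), Irf9 (0.82) and Irf1 (0.75), a factor that binds class I promoters, rose at 9 weeks. At 15 weeks Irf1 was at 0.35, below the fold threshold, and Irf2 fell by 0.41. Ifng itself was too low to be a DEG by the FPKM rule. It had 0 counts in 8 of 10 vehicle libraries and at most 1 in the others, a median of 14.5 counts at 9 weeks and of 1 count at 15 weeks. Its counts at 9 weeks ran from 0 in 1 library, female replicate 5, to 116.

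Of 9 genes that encode the factors Nlrc5 joins and its class II counterpart, only the latter, Ciita, rose, with log2 fold changes of 3.30 ± 0.44 at 9 and 2.02 ± 0.43 at 15 weeks, and the median of the 9 was -0.06 and -0.05. Ciita lay at 0.481 to 5.35 CPM in vehicle and at 3.60 to 72.4 CPM at 9 weeks. Rfx5, a subunit of the RFX complex, was 0.37 at 9 weeks, below the fold threshold, and was lower at 15 than at 9 weeks by -0.45 (adjusted p = 0.011).

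Markers of other cells moved with treatment too. Of 7 genes of all leukocytes, 7 were higher at 9 weeks (median log2 fold change 1.38), 0 at 15 weeks (median 0.50, none passed in edgeR), and 5 were lower at 15 than at 9 weeks. Of 12 T and NK cell genes 4 rose at 9 weeks and 1 at 15 weeks, and the summed level of all 13 listed genes, 1 of them too low to be tested, was 6.40 to 28.5 CPM in vehicle, 14.8 to 43.5 CPM at 9 weeks and 12.1 to 46.1 CPM at 15 weeks. The sexes did not overlap in this sum at 15 weeks, with 22.6 to 46.1 CPM in females and 12.1 to 19.7 CPM in males. In vehicle it was 10.5 to 28.5 CPM in females and 6.40 to 16.3 CPM in males. Of 10 macrophage and dendritic cell genes 4 and 1 rose, with sums of 25.9 to 123, 48.1 to 174 and 40.9 to 134 CPM, of 6 B and plasma cell genes 2 and 0, with sums of 19.1 to 251.9, 81.8 to 684 and 30.8 to 277 CPM, and of 5 neutrophil genes 3 and 2. The sum of all 6 listed neutrophil genes overlapped between the groups, at 12.7 to 179, 10.8 to 205 and 7.93 to 141 CPM. Its median was 99.0 CPM in vehicle, 138 CPM at 9 weeks and 53.7 CPM at 15 weeks, so the sum was not higher at 15 weeks. The defining T cell gene Cd3e was above 0 in all 30 libraries, and the neutrophil gene S100a8 was at 0 in 7 of 10 vehicle libraries. Of 10 epithelial genes 1 and 2 rose. At 15 weeks 6 of 6 smooth muscle genes, 3 of 8 mesenchymal and 1 of 5 endothelial genes fell, and at 9 weeks 0 of each. The vehicle group of these comparisons includes male vehicle replicate 1, and the counts of marker genes without it are not given here. The share of all genes that fell against vehicle is not given either, so the counts of genes that fell have no such reference.

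With the mean log2 CPM of the leukocyte genes as a covariate in the fit, 6 of the 10 genes were DEGs at 9 weeks, against 0.91% of all genes. They were Nlrc5 (log2 fold change 3.31, adjusted p = 0.000515), Psmb8 (1.71, adjusted p = 0.000995), Tap1 (1.64, adjusted p = 0.00213), Psmb9 (1.52, adjusted p = 0.000677), B2m (1.19, adjusted p = 0.00595) and H2-D1 (0.74, adjusted p = 0.00465). H2-K1 (0.58, adjusted p = 0.0775), Psmb10 (0.64, adjusted p = 0.124) and Tap2 (0.51, adjusted p = 0.187) did not pass. At 15 weeks the count with this covariate was 8, against 3.76% of all genes, and from 9 to 15 weeks it was 0, as for all genes (0% lower). In females it was 0 at 9 weeks (0.00615% of all genes) and 0 at 15 weeks (0.0307%). In males it was 8 (1.53%) and 9 (4.69%). The covariate moves with the treatment it adjusts for, and whether epithelial cells or leukocytes carried the RNA of these genes was not tested.

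The 10 genes varied together over the libraries. These correlations are descriptions over 30 libraries, of which groups and depth are shared, and they carry no test. The median Pearson r of log2 CPM over the 45 pairs was 0.849, from 0.543 for Tapbp with Nlrc5 to 0.988 for the neighbours Tap1 and Psmb9. The reads of this pair may be shared where the genes overlap, since the strand setting of the counting is not given in the sources used here. After the mean of each group had been taken out, the median was 0.643, and Nlrc5 followed Tap1 (r = 0.877) but less so B2m (r = 0.384) and H2-K1 (r = 0.259). H2-K1 and H2-D1 had an r of 0.938 with each other after that step, where reads may also be shared.

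**Figure D5:**
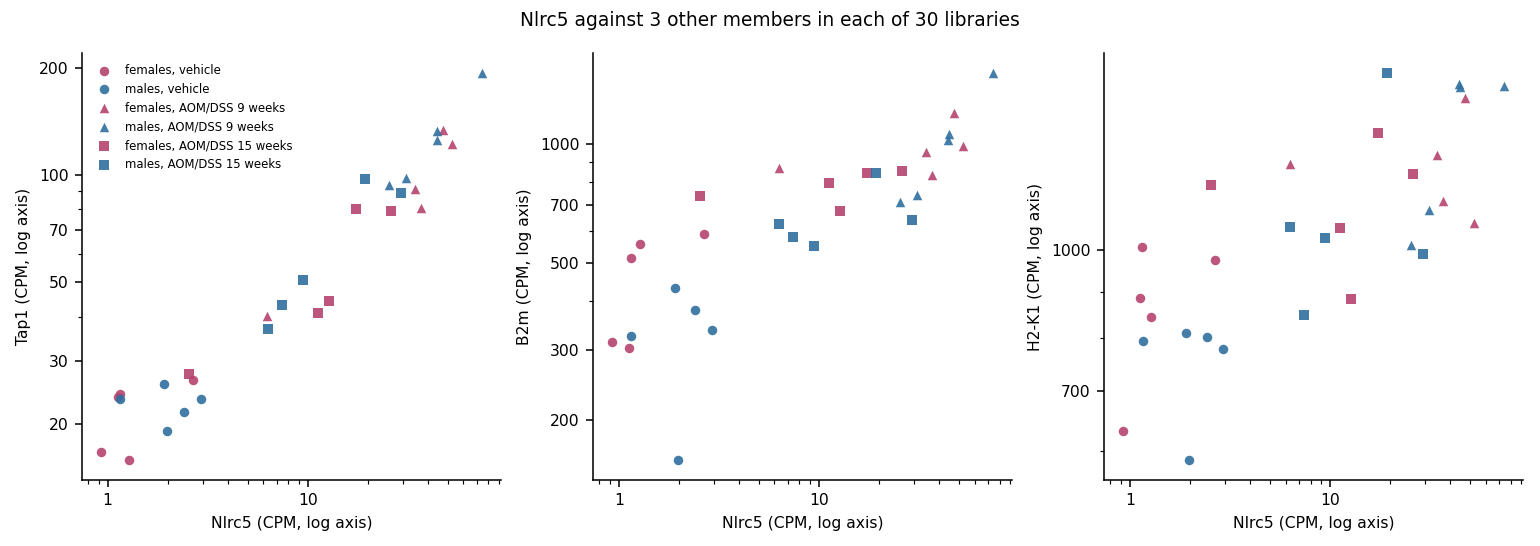
Nlrc5 (CPM, log axis) against Tap1, B2m and H2-K1 (CPM, log axis) in each of 30 libraries, with sexes by colour and groups by shape. Over all libraries Pearson r of log2 CPM with Nlrc5 is 0.971 for Tap1, 0.818 for B2m and 0.747 for H2-K1, the separate clusters of vehicle and treated libraries contribute to each.

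Outside the 10 genes, those whose log2 CPM was most like the mean of the standardized log2 CPM of the 10, over 30 libraries, included Trim40 (r = 0.945), H2-Q7 (0.945), Zbp1 (0.942), Psme1 (0.941), Ube2l6 (0.939), Nos2 (0.926), Igtp (0.926), Cxcl9 (0.924) and Gm12250 (0.921). With the group means taken out they were Psme1 (0.825), H2-Q7 (0.824), Zbp1 (0.812), Phf11a (0.789), Igtp (0.787), H2-T22 (0.786), Ube2l6 (0.786), Isg15 (0.783), Unc93b1 (0.778) and H2-Q4 (0.775). The leukocyte gene Ptprc had an r of 0.520 with the mean of the 10, and 0.168 with the group means taken out, and the epithelial gene Epcam of 0.757 and 0.473. Another epithelial gene, Cdh1, had an r of 0.0863 and 0.0403.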

How the data were processed

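RNA from the scraped colon epithelial layer of 30 mice was sequenced by the authors after poly(A) selection with a stranded kit (TruSeq Stranded). Per the labels and the methods, bcl2fastq 2.20.0.422, Trim Galore, STAR (GRCm38), featureCounts and StringTie were used. The deposited table holds raw read counts per gene, and the deposited abundance files hold StringTie FPKM and TPM per library, each scaled by the authors. Strand settings of the counting are not given in the sources used here. Each abundance file held 11 to 20 repeated gene lines, and 6 genes were missing from at least 1 of them.

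Samples were grouped by the labels of sex, treatment and week. The members and lists were chosen with earlier results of these data known. The text names all members, a fixed set of partner genes, up to 4 DEGs of each pathway list with the largest change, and the 10 genes most like the members, with and without group means. Irf2 and the marker genes given as checks (Epcam, Cdx2, Cd3e, S100a8, Ptprc, Cdh1) were named after their values were seen. Of the genes this rule names, 1 is not reported here. Motifs were searched in RefSeq promoter windows (GRCm38.p6).

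Counts of 16261 genes that passed filterByExpr were fitted with edgeR 4.0.16 (R 4.3.3), with TMM factors of 0.832 to 1.10, as 1 quasi-likelihood model of 6 group means over all 30 libraries (common biological coefficient of variation 0.319). The authors used DESeq2. Contrasts averaged the sexes, took each sex or tested their difference, and p-values were adjusted by Benjamini-Hochberg over all genes tested. The SE is the log2 fold change divided by the square root of F. The fit was tested on simulated data. In the deposited TPM, mt-Nd4l took 39.2 to 58.1% of each library, so levels of different genes were compared in TPM within libraries only. Between libraries, deposited TPM was used in the limma alternative alone, and deposited FPKM in the minimum of the DEG rule. A TPM rescaled between libraries was added after seeing the data.

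Depth ran from 9265804 to 30806392 counts (lowest in female vehicle replicate 5). The 60 pairs of libraries within groups had a Spearman correlation of 0.936 to 0.992 and a chi-square per degree of freedom of at least 13.7, so none was a repeat of another. Replicate numbers were not treated as pairs in the main fit. The 75 correlations of same-numbered deviations over 2000 genes ran from -0.63 to 0.61, and 17 exceeded 0.1. Differently numbered libraries were not correlated for reference, so this check cannot show whether the numbers pair the mice. The alternatives were DESeq2 1.42.0, other size factors, no filter on low counts, adjusted p alone, a replicate block, leukocyte or mesenchyme scores as covariates, only the compared libraries, limma 3.58.1 on log2(TPM + 1), count ratios for the proteasome, and leaving out each library.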

Additional observations from a re-analysis of the deposited data

Results flagged for a closer look

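Groups of 5 libraries were looked at on the log2 CPM of each gene and the log2 ratio of each proteasome pair, 78 in all. In 4 of the 78, 1 library lay far from the other 4 (a gap to its nearest neighbour above 0.71 of the range of the group), as chance alone gives in about 1 of 20 groups. All 4 were on the log2 CPM scale. In male vehicle replicate 1, B2m was at 7.30 (158.02 CPM) against a median of 8.48 in the other 4, and H2-K1 at 9.20 (586 CPM) against 9.64. This is the library with 5277 CPM of smooth muscle genes, and the part of that tissue in the low values was not tested. In female 9-week replicate 4, H2-D1 was at 10.30 (1263 CPM) against a median of 9.94. In female 9-week replicate 5, Nlrc5 was at 2.67 (6.29 CPM) against 5.39. That library also had the lowest Ciita at 9 weeks (3.60 CPM), 0 counts of Ifng and the lowest sum of leukocyte genes at 9 weeks (80.7 CPM). Its sums of B and plasma cell (81.8 CPM), macrophage and dendritic cell (48.1 CPM) and neutrophil genes (10.8 CPM) were the lowest at 9 weeks too. Its sum of T and NK cell genes was not low, at 42.8 CPM in a 9-week range of 14.8 to 43.5 CPM. The part of these genes in the low Nlrc5 was not tested.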

How the results depend on the processing

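Counts of DEGs among the 10 genes at 9 weeks, sexes averaged, were 9 in each of 20 fits that left out 1 library. The ranges over such fits were 7 to 9 at 15 weeks, 1 to 6 from 9 to 15 weeks, 6 to 7 and 9 to 10 in females and males at 9 weeks, 0 to 4 and 7 to 9 at 15 weeks, and 0 to 0 in the other 8 comparisons. With deposited TPM in limma, whose all-gene median moved by 0.20, -0.18 and -0.43 (log2) in the 3 averaged comparisons, the counts were 1 at 15 weeks, 10 from 9 to 15 weeks, 0 in females and 0 in males at 15 weeks, and 9 in males from 9 to 15 weeks. Rescaled TPM gave 1 in females at 15 weeks. From 9 to 15 weeks the count was 0 with the mesenchyme or the leukocyte score. With the leukocyte score it was 0 in females at 9 and at 15 weeks. With only the compared libraries it was 0 in females and 5 in males at 15 weeks. DESeq2 gave 1 in males from 9 to 15 weeks. The share of all genes called moved with the fit too. At 9 weeks, sexes averaged, it was 5.51% in the main fit and 0.91% with the leukocyte score. It is not given here for the other alternatives, apart from the mesenchyme score, or for the fits that left out 1 library. Their counts are therefore not set against all genes. Directions turned with deposited TPM for Tapbp (-0.0145 at 15 weeks, -0.10 in males at 15 weeks, -0.61 from 9 to 15 weeks) and Tap2 (-0.13 in males at 15 weeks). From 9 to 15 weeks, Psmb10 was 0.0318 with the leukocyte score, and when single libraries were left out Tapbp ran from -0.0210 to 0.0985 and Psmb10 from -0.14 to 0.0378. The ratio of Psmb10 to Psmb7 at 15 weeks ranged from 0.29 to 0.46 (log2) and lost its call in 12 of 20 such fits (permutation, adjusted p from 0.0121 to 0.0790). Of 70 results of single genes, 66 kept their direction and their side of the threshold with DESeq2, 69 with other size factors, 69 without the filter on low counts, 68 with adjusted p alone, 67 with rescaled TPM, 61 with only the compared libraries, 60 with the mesenchyme score, 50 with the leukocyte score and 39 with deposited TPM. A replicate block changed 1 of 70 results of single genes and gave counts of 9, 8 and 4 in the averaged comparisons, with 2 in females at 15 weeks. Fits with fewer libraries have fewer degrees of freedom, and the cause of these moves was not tested. With 5 mice per group, the SE of a difference between the responses of the sexes at 9 weeks was 0.18 to 0.73 (log2).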
